A study of Mus musculus with 3 samples.

Results

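Integrins are receptors for the extracellular matrix, each made of an alpha and a beta subunit, and 9 subunit genes of the mouse together with nephronectin, a matrix ligand, are described here. The genes were chosen by name: Itga8, Itga1, Itga3, Itga4, Itga6, Itgav, Itgb1, Itgb4, Itgb6 and Npnt. All 10 had at least 1 oligo that carried their symbol alone and a value on every array, and none was missing, so 10 of 19635 genes tested are covered. The data were 3 2-colour oligonucleotide arrays of 1 kind, each of which hybridised RNA of 13.5 dpc (days post coitum) kidney together with RNA of 10.5 dpc metanephric mesenchyme. Both tissues came from CD1 mouse embryos by microdissection, with the sexes pooled and no genetic change or treatment given in the labels, and the RNA was amplified. The deposited value is a log2 ratio of the 2 tissues. Neither the numerator tissue nor the arrays with swapped dyes could be learned from the labels, so each gene is described by the sign of its ratio and no tissue is called higher.

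The metanephric mesenchyme signals to the ureteric bud, the epithelial outgrowth that branches into the collecting ducts, and part of the mesenchyme turns into nephrons. Mesenchymal cells carry the integrin of Itga8 and Itgb1, and nephronectin is laid down in the basement membrane of the bud. Mouse mutants lacking either Itga8 or Npnt often fail to form kidneys, and the receptor and its ligand are known to be needed for normal Gdnf expression, the signal that draws the bud in. Other integrins serve later steps, with laminin receptors such as those of Itga3 and Itga6 on the basal side of epithelia.

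The stretches upstream of the annotated starts of the receptor and ligand genes are shown because this pair is the best known integrin axis of the early kidney. Itga8 lies on chromosome 2, at 12106632 to 12301985, and Npnt on chromosome 3, at 132881745 to 132950291, in the GRCm38.p6 annotation of RefSeq. Each stretch comes from the 250 bases before a start, from RefSeq, on the minus strand of GRCm38.p6 and 5′ to 3′. The start used for Itga8 lies inside the annotated gene span, so the 41 bases within the span are not printed and 209 remain. Capitals mark the GC box, GGGCGG or its complement on the other strand.
Itga8, chr2:12301986-12302194: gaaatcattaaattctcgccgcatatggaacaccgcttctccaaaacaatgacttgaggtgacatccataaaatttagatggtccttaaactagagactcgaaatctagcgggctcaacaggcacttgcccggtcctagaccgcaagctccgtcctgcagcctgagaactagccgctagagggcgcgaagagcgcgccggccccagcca
Npnt, chr3:132950292-132950541: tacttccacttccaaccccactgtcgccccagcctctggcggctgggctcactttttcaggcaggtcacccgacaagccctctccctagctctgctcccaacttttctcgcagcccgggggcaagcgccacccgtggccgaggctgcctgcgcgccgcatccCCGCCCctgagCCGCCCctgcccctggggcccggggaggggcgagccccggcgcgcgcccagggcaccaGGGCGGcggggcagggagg
Over its 250 bases Npnt held 3 GC boxes with 74.0% G and C, and Itga8 held 0 with 56.4%. Over 32851 stretches of this length before annotated starts, 32.7% held at least 1 GC box on either strand and the median content of G and C was 52.4%. The TATAAA and CCAAT motifs, also searched on both strands, were in neither of these stretches; they were in 12.4% and 33.8% of all stretches. Npnt has another annotated start, whose upstream stretch had 0 GC boxes. Of the 10 genes, 8 had an entry in the promoter table. The arrays measured RNA only, and none of these letters was tested against it.

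The RNA ratios of the receptor and its ligand disagreed between arrays. Itga8, the alpha subunit of the nephronectin receptor, had log2 ratios of -1.19, -1.23 and 1.09 on arrays 1, 2 and 3. Arrays 1 and 2 lay close together on the negative side and array 3 almost as far on the positive side. The mean was -0.45 ± 1.33 (SD, n = 3 arrays), with a 95% interval of -1.88 to 0.99, and it did not pass the test (limma, Benjamini-Hochberg adjusted p = 0.719). Npnt had 0.93, 0.15 and -0.73 on the same arrays, with the 2 signs mixed and in the reverse order. Its mean was 0.12 ± 0.83 (95% interval -0.83 to 1.07; limma adjusted p = 0.895), and without array 1 it was -0.29. The difference of the log2 ratios, Itga8 minus Npnt, was -2.12, -1.39 and 1.82 on the arrays, so the sign of the difference depended on the array.

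**Figure D1:**
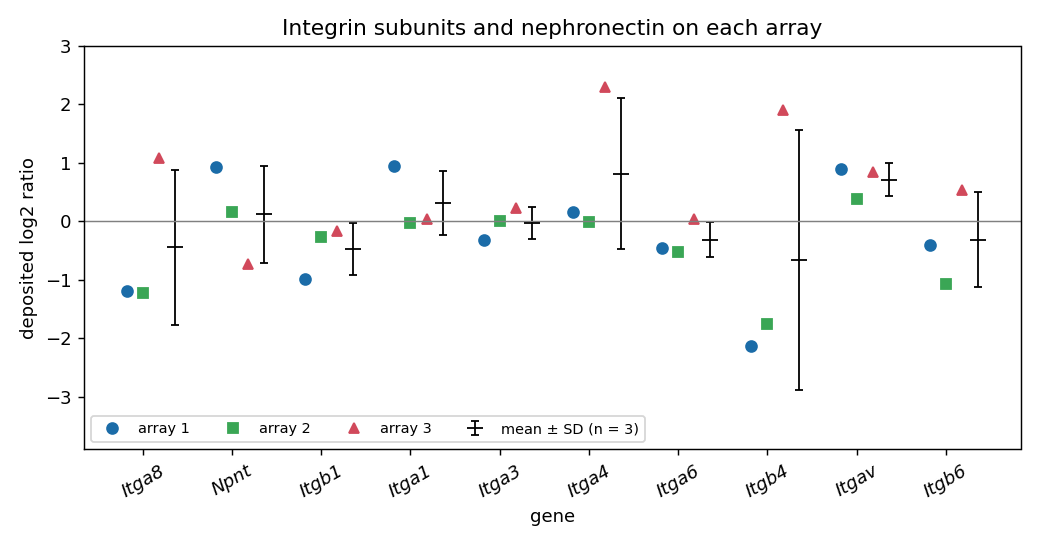
Deposited log2 ratio (vertical axis) of each of the 10 genes (horizontal axis) on array 1 (circles), array 2 (squares) and array 3 (triangles), with the mean and SD of the 3 arrays in black. Itga8 and Itgb4 have array 3 above 1 and the other arrays below -1, and Itgav is the only gene with every array above 0.

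Itgb1 encodes the beta subunit that pairs with most of the alpha subunits described here. It had log2 ratios of -0.99, -0.27 and -0.17 on arrays 1, 2 and 3, all negative, with array 1 well below the other two. The mean was -0.48 ± 0.45 (95% interval -1.08 to 0.13; limma adjusted p = 0.380), and without array 1 it was -0.22. It was the only one of the 10 genes negative on every array, a pattern shown by 19.9% of all genes.

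Itgav encodes an alpha subunit that binds the RGD motif of matrix proteins such as vitronectin and can pair with several beta subunits. Its log2 ratios, averaged over 3 oligos, were 0.90, 0.38 and 0.85 on arrays 1, 2 and 3, and all arrays lay on the positive side. The mean was 0.71 ± 0.28 (95% interval 0.23 to 1.19), a 1.64-fold difference between the tissues, and it did not pass over all genes (limma adjusted p = 0.193). By limma fitted across all genes, Itgav alone of the 10 genes had an unadjusted p under 0.05, at 0.0139, and without array 1 it too was above that level; over all genes tested 16.8% were under 0.05. A positive sign on every array was seen for 21.5% of all genes.

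The 3 oligos of Itgav did not give the same values. The oligo with listing number 19964 had log2 ratios of 0.71, 0.85 and 1.16 on arrays 1, 2 and 3, and so was the steadiest, at a mean of 0.90 ± 0.23. The oligo numbered 11851 had 2.29, 0.40 and 0.37, where array 1 alone was high. The oligo numbered 5218 had -0.30, -0.088 and 1.03, negative on arrays 1 and 2 and positive on array 3, with a mean of 0.21 ± 0.71. Taken alone, the adjusted p was 0.138, 0.359 and 0.771 for these oligos in the order given (limma). Whether the oligos read the same transcripts was not examined here.

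Itgb6 encodes a beta subunit of epithelia that pairs with the Itgav subunit and with it activates latent TGF-beta. It had -0.42, -1.07 and 0.54 on arrays 1, 2 and 3, so the arrays fell on both sides. The mean was -0.32 ± 0.81 (95% interval -1.24 to 0.61; limma adjusted p = 0.692), and without array 2 it was 0.063. The log2 ratio of Itgav exceeded that of Itgb6 by 1.31, 1.46 and 0.31 on the arrays, a mean of 1.03 ± 0.63. This difference is a description and was not tested, and its size rested on the average of the 3 Itgav oligos. The Itgav oligo nearest in listing number to that of Itgb6 (5218, against 5119) had -0.30, -0.088 and 1.03. Taken alone, that oligo was also above Itgb6 on every array, but only a little above it on array 1.

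The laminin receptors also gave no consistent sign. Itga6, whose product pairs with the beta subunit of either Itgb1 or Itgb4, had -0.45, -0.52 and 0.036 on arrays 1, 2 and 3, negative on arrays 1 and 2 and near 0 on array 3 (mean -0.31 ± 0.30; 95% interval -0.81 to 0.18; limma adjusted p = 0.465). Itgb4, the subunit of hemidesmosomes, which anchor epithelia to the basement membrane, had -2.13, -1.76 and 1.90. These were the widest spread of the 10 genes: the array values lay far from 0 on both sides, with a mean of -0.66 ± 2.23 (95% interval -3.01 to 1.69; limma adjusted p = 0.745). Without array 1 the mean of Itgb4 was 0.073. The log2 ratio of Itga6 minus that of its partner Itgb4 was 1.67, 1.23 and -1.87 on the arrays, so that difference changed sign with array 3 as well.

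Itga3, the alpha subunit of a laminin receptor of ureteric bud cells and podocytes, stayed near 0 throughout. It had -0.32, 0.0086 and 0.23 on arrays 1, 2 and 3, with a mean of -0.028 ± 0.28 (95% interval -0.51 to 0.45; limma adjusted p = 0.954). Without array 1 the mean was 0.12. With Itgav and Itga6 it had the narrowest intervals of the 10.

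Itga1 and Itga4 had positive means that rested on a single array each. Itga1, the alpha subunit of a collagen receptor, had 0.95 on array 1 and -0.038 and 0.038 on arrays 2 and 3. Its mean of 0.32 ± 0.55 (95% interval -0.37 to 1.00; limma adjusted p = 0.589) was 0.00022 without array 1. Itga4, whose product binds fibronectin and the cell-surface protein VCAM-1, had 0.15, -0.019 and 2.30 on arrays 1, 2 and 3. Array 3 alone was high, and the mean of 0.81 ± 1.29 (95% interval -0.59 to 2.21; limma adjusted p = 0.497) was 0.068 without array 3. The mean of Itga4 was the highest of the 10, and its interval took in 0.

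Set in order of their means, the genes ran Itga4, Itgav, Itga1, Npnt, Itga3, Itga6, Itgb6, Itga8, Itgb1 and Itgb4. The SD of most was larger than the step to the next gene, and the intervals of all neighbours overlapped, so the order is only that of the means. The median of the 10 means was -0.17, against 0.0020 over all genes, and 6 of the 10 were negative, against 49.7% of all genes. With an adjusted p under 0.05, limma called 0 of the 10 genes, against 0.00509% of all genes (1 of 19635). No mean reached 1 in size, a level reached by 5.33% of all genes, and 9 of the 10 intervals contained 0. In tissue samples such as these, fewer cells of a type and less RNA per cell cannot be told apart.

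Array 3 stood apart for these genes more often than over all genes. It was above both other arrays for 7 of the 10, against 35.8% of all genes. The signs negative, negative and positive on arrays 1, 2 and 3 were found for Itga8, Itga6, Itgb4 and Itgb6, or 4 of 10 genes, against 13.4% of all genes. Arrays 1 and 2 at or below -1 with array 3 at or above 1 were found for Itga8 and Itgb4, against 0.428% of all genes, and array 3 was at least 2 log2 units from the mean of the other arrays for Itga4, Itga8 and Itgb4, against 3.47%. These features of the values were picked out after the values were seen, and they are given as a description. Most of the 10 genes have oligos at listing numbers 5001 to 6000, described below. Of all genes with an oligo there, 37.4% had the signs negative, negative and positive. No share of that stretch was taken for the larger splits, and the part of the listing place was not tested. The median of array 3 minus the mean of arrays 1 and 2 was 0.49 for the 10 genes and 0.90 for the 8 with an oligo at those numbers. It was 0.48 for all genes with an oligo at those numbers and -0.026 over all genes. Npnt was the 1 gene with the signs positive, positive and negative, against 15.1% of all genes, and its array 3 minus the mean of arrays 1 and 2 was -1.28.

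**Figure D2:**
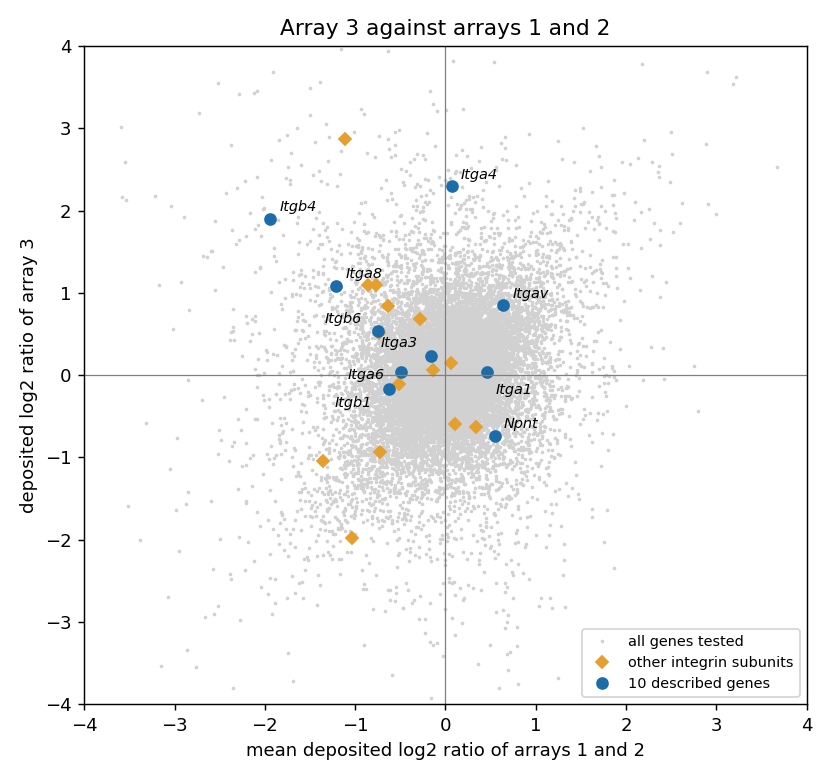
Deposited log2 ratio of array 3 (vertical axis) against the mean of arrays 1 and 2 (horizontal axis) for all genes tested (grey), with the 10 described genes in blue circles and 14 other integrin subunits in orange diamonds; 26 genes lie beyond 4 on an axis and are not drawn. Itgb4 and Itga8 lie in the upper left, negative on arrays 1 and 2 and positive on array 3, where several other integrins lie too.

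The place of the oligos in the array's listing moved with this disagreement. Each library oligo has a number in its deposited identifier, and the labels do not say what the number stands for. Of the 12 oligos of the 10 genes, 8 lay between numbers 5001 and 6000, those of Itgb6, Itgb4, Itga8, Itga4, Itgb1, Itga3 and Itga6 and 1 of Itgav. In that stretch of 1000 oligos arrays 1, 2 and 3 had median log2 ratios of -0.32, -0.15 and 0.33, whereas over the whole library the medians were 0.0014, 0.030 and 0.0014. Over the whole library the arrays correlated across oligos at r = 0.46 for arrays 1 and 2, 0.16 for arrays 1 and 3 and 0.15 for arrays 2 and 3. In the stretch from 5001 to 6000 these values (Pearson) were 0.71, -0.0080 and -0.051, so array 3 had almost no linear correlation with the others there. Other stretches had no positive correlation with array 3 either: from 9001 to 10000 the values were 0.31, -0.14 and -0.13. From 2001 to 3000 they were 0.54, 0.59 and 0.51, the best agreement of array 3 with the others along the listing. Of 951 genes with an oligo at numbers 5001 to 6000, 37.4% had the signs negative, negative and positive. Of the 8 described genes with an oligo there, 4 had them; Itga1 and Npnt, which have none there, did not.

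**Figure D3:**
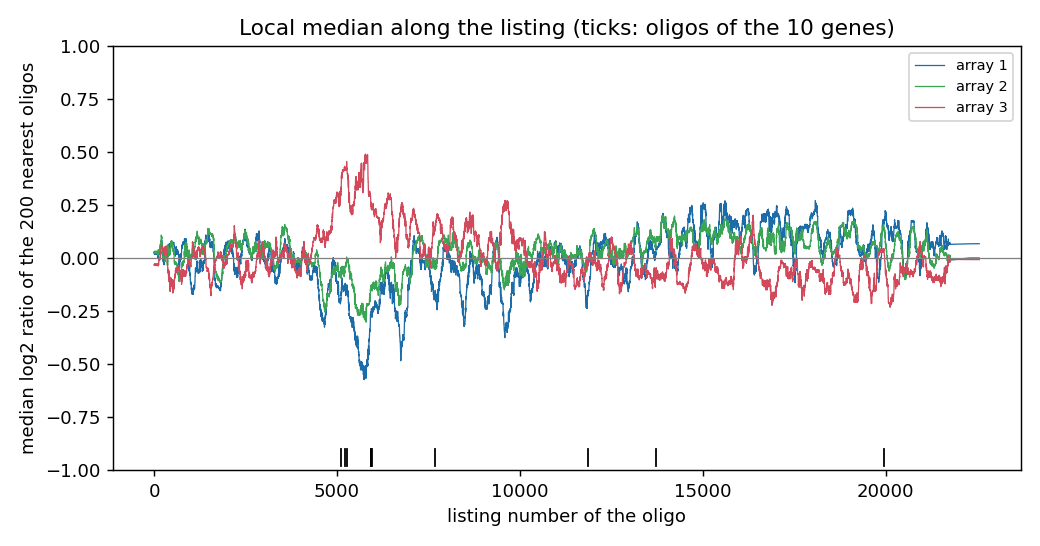
Median log2 ratio of the 200 nearest library oligos (vertical axis) along the listing number (horizontal axis) for each array; ticks at the bottom mark the 12 oligos of the 10 genes. Near numbers 5001 to 6000, where 8 of the ticks lie, array 3 is above 0 and arrays 1 and 2 are below it.

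Subtracting the median of the 200 nearest oligos on each array, a step added after the data were seen, left part of the disagreement. Itga8 then had -0.93, -1.11 and 0.83 on arrays 1, 2 and 3, and Itgb4 had -1.98, -1.74 and 1.51, still on both sides of 0. Itga6 moved to -0.20, -0.39 and -0.19, which made every array negative, and its mean was -0.26 ± 0.11. Itgb1 stayed negative throughout, at -0.74, -0.13 and -0.43, and Itgav positive, at 0.94, 0.36 and 0.72. The signs negative, negative and positive were left for 3 of the 8 genes with an oligo in that stretch (Itga8, Itgb4 and Itgb6), against 18.7% of all genes of that stretch and 13.9% of all genes. Limma called 0 of the 10 genes in this form, with Itgav the only 1 at an unadjusted p under 0.05.

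On arrays 1 and 2 alone the means were -1.94 for Itgb4, -1.21 for Itga8, -0.74 for Itgb6 and -0.49 for Itga6. In that fit 5 of the 10 genes had an unadjusted p under 0.05, these 4 and Itgav, against 19.9% of all genes, and 0 passed the adjustment (limma adjusted p = 0.202 for both Itgb4 and Itga8). With array 3 included, Itgb4 and Itga8 had means under 1 in size. Leaving out array 1 instead, 0 of the 10 had an unadjusted p under 0.05 (limma), against 1686 of 19776 genes. Leaving out array 2 it was 1, Itgav, against 2078 of 19790 genes. The oligos of the 4 negative genes all lie at listing numbers 5001 to 6000, where arrays 1 and 2 had negative medians. No share of that stretch was taken in these fits. The part of the dye swap, the listing place or the tissue pool in this was not tested.

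By nearness of the 3 array values (Euclidean distance on the log2 scale, over the 3 arrays), the genes most like Itga8 were Brs3, 1700003O08Rik, Crim1, Gpa33 and Sod3, at distances from 0.25 to 0.30. Crim1, which encodes a membrane protein known in kidney development, had -1.30, -1.41 and 1.24 on arrays 1, 2 and 3, with the same split of array 3 from the others. The genes nearest to Npnt were 5430440P10Rik, 5430428K19Rik, Sox10, 1700063H06Rik and Azgp1, at 0.058 to 0.19. With only 3 arrays such likeness says little.

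Of 18 other integrin subunits, 14 had a value on every array, and Itga10, Itga11, Itgad and Itgb8 had no oligo with their symbol alone. Of the 14, 10 had a negative mean, with a median of -0.15, and 0 passed limma over all genes. An unadjusted p under 0.05 was found for 3, all negative, against 7.83% of all genes on that side. Itga7, the alpha subunit of the laminin receptor of muscle, had -1.23, -0.83 and -1.98 on arrays 1, 2 and 3, negative throughout (mean -1.35 ± 0.58; limma adjusted p = 0.146). Itgam, a subunit of macrophages and granulocytes, had -0.93, -0.52 and -0.94 (mean -0.80 ± 0.24; limma adjusted p = 0.157), and Itgb5, another partner of the Itgav subunit, had -2.34, -0.37 and -1.04 (mean -1.25 ± 1.00; limma adjusted p = 0.262). The 3 were named for their small p, which favours a like sign on all arrays. The signs negative, negative and positive were shown by 7 of the 12 with an oligo at numbers 5001 to 6000, against the 37.4% of that stretch, and by 0 of the other two. Itga2, the alpha subunit of another collagen receptor, was the widest of these at -1.10, -1.14 and 2.87.

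Markers of some cell types that carry these integrins are given beside their values. For Itga3, the list of tubule and podocyte markers was positive for 4 of the 5 measured, where 50.3% of all genes were. Its list means were 0.845, 0.563 and 0.965 on arrays 1, 2 and 3, and Cdh16 was the highest (3.62, 2.75 and 3.54). The podocyte markers Nphs1 and Podxl had means of 0.17 and -0.19. For Itga7, all 6 markers of skeletal muscle and somite were negative, where 49.7% of all genes were, with list means of -1.18, -0.91 and -0.71 on arrays 1, 2 and 3. For Itgam, the leukocyte list held Itgam and Itgb2 themselves, and its 3 other measured markers, Tyrobp, Ptprc and Cd68, had means of 0.42, 0.22 and -0.12, so they did not share a sign with Itgam. Nephron progenitor markers, the cells of Itga8, were positive for 6 of 8, with list means of 0.57, 0.62 and 0.57, and ureteric bud markers, the cells of Npnt, were positive for 6 of 8, with 0.12, 0.27 and 0.33; of all genes 50.3% had a positive mean. The mean of neither list showed the opposite array 3 that Itga8 and Npnt did. The only single markers with such signs were Sall1 (-0.15, -0.14 and 0.25), Ret (-0.35, -0.33 and 0.11) and Krt8 (0.33, 0.11 and -0.14). A ratio cannot show whether a marker was present, and the part of these cells in the integrin values was not tested.

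Ligands of the integrins lay on both sides, more of them on the positive side. Of 34 ligand and matrix genes 29 were measured, 19 had a positive mean, where 50.3% of all genes did, and the median of the means was 0.32, against 0.0020 over all genes. An unadjusted p under 0.05 was found for 10, all positive, against 8.99% of all genes on that side, and limma passed 0 over all genes. Of the 29, 14 were positive on every array, against 21.5% of all genes, and 4 negative on every array, against 19.9%. Those negative included 2 ligands of the Itga4 receptor, Fn1 (-0.48, -0.51 and -0.19) and Vcam1 (-0.34, -0.039 and -0.36). Vtn, which encodes vitronectin, was mixed at -1.46, -0.30 and 0.20. Lama4, a laminin chain of vessel basement membranes, had 2.05, 2.03 and 2.56 on arrays 1, 2 and 3 (mean 2.22 ± 0.30; limma adjusted p = 0.107). Tgfbi, a matrix protein that integrins bind, had 1.80, 1.66 and 1.25 (mean 1.57 ± 0.28; adjusted p = 0.107), and the laminin chain Lamb1 had 0.97, 1.11 and 1.37 (mean 1.15 ± 0.20; adjusted p = 0.109). All 3 were positive on every array, but they were named for their small p, which favours a like sign on all arrays. The median SD over the 29 ligand genes was 0.28, against 0.68 over the 10 genes, 0.40 over the genes of the stretch from 5001 to 6000 where most of the 10 have their oligos, and 0.32 over all genes; the difference was not tested. Egfl6, an RGD protein related to nephronectin that binds the same Itga8 receptor, had 0.68, 0.53 and 0.53 (mean 0.58 ± 0.084; limma adjusted p = 0.191), positive on each array where Npnt was mixed.

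**Figure D4:**
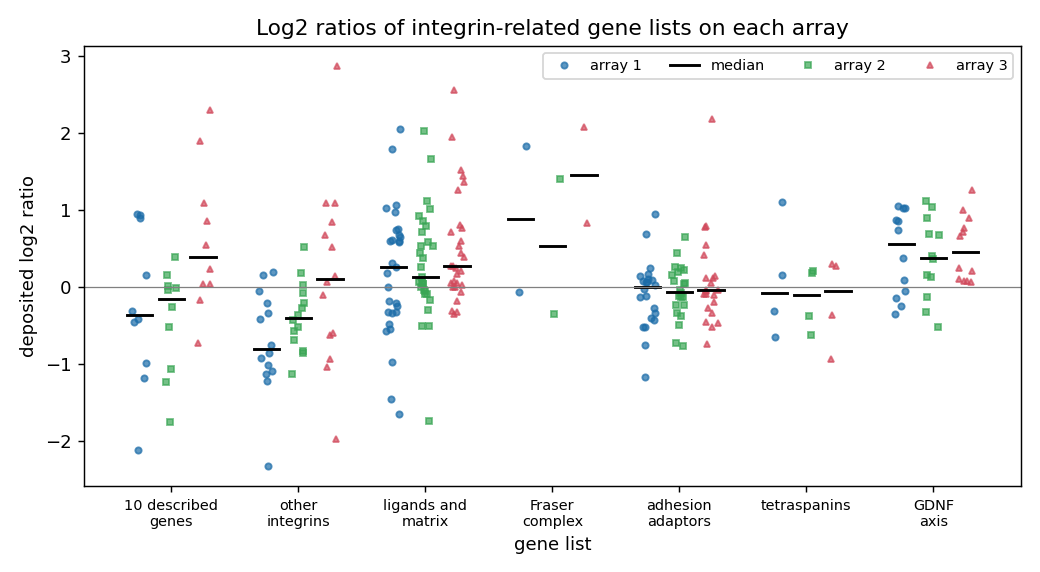
Deposited log2 ratio (vertical axis) of the measured genes of each list (horizontal axis) on arrays 1, 2 and 3 (circles, squares, triangles), with the median of each array as a black bar. The medians of the 10 described genes are -0.37 and -0.15 on arrays 1 and 2 and 0.38 on array 3, while those of the GDNF axis lie between 0.38 and 0.56.

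The Fraser complex anchors nephronectin to the basement membrane of the bud, and 2 of its 5 listed genes were measured. Frem2 had 1.83, 1.41 and 0.83 on arrays 1, 2 and 3, positive throughout (mean 1.35 ± 0.50; limma adjusted p = 0.130). Grip1, the scaffold that brings the complex to the cell surface, had -0.068, -0.35 and 2.09, with array 3 alone high (mean 0.56 ± 1.33; limma adjusted p = 0.652). In the GDNF axis, 9 of 12 measured genes had a positive mean, against 50.3% of all genes, and the median of the means was 0.47. Gdnf, Six2, Eya1, Sall1, Gata3 and Ret of this axis also stand in the marker lists given above, so the lists are not separate. Of the 12, 6 had an unadjusted p under 0.05, all positive, against 8.99% of all genes on that side, and limma passed 0 over all genes. Slit2, Gata3 and Six2 had the smallest p, at means of 1.10 ± 0.13, 1.02 ± 0.11 and 0.78 ± 0.096 (limma adjusted p = 0.109, 0.110 and 0.139). Gdnf itself had 0.87, 0.40 and 0.76 on arrays 1, 2 and 3, positive on each, where Itga8 and Npnt had mixed signs.

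The proteins that tie integrin tails to actin went both ways. Of 30 listed adaptors 22 were measured, 9 with a positive and 13 with a negative mean, and the median of the means was -0.057. Limma passed 0 over all genes, with 1 positive and 2 negative at an unadjusted p under 0.05, a share of the 22 no larger than the 16.8% of all genes. Ilk, integrin-linked kinase, had -1.17, -0.74 and -0.75 on arrays 1, 2 and 3 (mean -0.89 ± 0.25; limma adjusted p = 0.144). Parva, which binds Ilk in the same complex, had 0.68, 0.65 and 0.77 (mean 0.70 ± 0.062; limma adjusted p = 0.149), so the partners lay on opposite sides on every array. Fyn, a kinase of the Src family, had -0.43, -0.38 and -0.47 (mean -0.43 ± 0.049; limma adjusted p = 0.266). Of the tetraspanins, membrane proteins that associate with laminin-binding integrins, 4 of 6 were measured, 2 on each side, with a median of -0.068, 0 passed by limma and 1, Cd81, at an unadjusted p under 0.05, against 16.8% of all genes. Cd81 had -0.66, -0.62 and -0.94 (mean -0.74 ± 0.17; limma adjusted p = 0.155), Cd151, a partner of the Itga3 and Itga6 receptors, stood at -0.36 ± 0.031 (limma adjusted p = 0.323), and Cd63 at 0.52 ± 0.51 (limma adjusted p = 0.381).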

How the data were processed

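RNA of 13.5 dpc kidney and 10.5 dpc metanephric mesenchyme was compared on 3 2-colour arrays of the Compugen mouse oligo library, per the labels. Images were read with ImaGene 5.5, and ratios were normalized by print-tip loess and between arrays in R, per the labels, which also describe a lowess curve with 20% of the data at each point and control values under 10 set to 10. The authors deposited log2 ratios; the base was inferred from the values, which as powers of 2 are ratios of 3 decimals (within 0.01 of the last decimal) for 99.7% to 99.8% of values on each array. Such normalization centres the ratios near 0, amplification can alter the ratio of single transcripts, and spot intensities were not used here, so dim or saturated spots could not be examined. The number of arrays limits the precision.

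Of 22702 spots, 881 controls were left out. Of 21821 library oligos, 16658 had 1 symbol in the platform annotation, 137 several and 5026 none listed. Entrez identifiers of 15972 were found in the RefSeq table and changed 0 symbols. Oligos valued on all 3 arrays (21094) were averaged per symbol, unnamed oligos kept singly, and 19635 genes entered an intercept-only model in limma 3.58.1 under R 4.3.3 (lmFit, eBayes, mean against 0, two-sided, Benjamini-Hochberg over all genes, threshold 0.05). The fit was also run on simulated ratios with independent normal errors of equal spread on all 3 arrays. Those lacked a disagreeing array and shifts along the listing, so that run cannot speak for these features of the data. Intervals are limma's 95% intervals. The labels do not say whether separate pools of tissue were used, so p-values reflect only array-to-array spread, possibly technical. The arrays differed from each other in their values, and the labels name no batch.

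The genes, the related lists and the tests were chosen with earlier results of these data known. All 10 genes are named. Of each related list the 3 of smallest p, or all measured if fewer, are named, and for Itga8 and Npnt the 5 nearest genes. The cell type marker lists did not follow this rule. Any other gene was named after its values were seen. Alternatives covered the averaging of oligos, missing values, centring, scaling, array weights, robust variance, ratios at the floor and each array left out. One more, subtraction of the local median along the listing, was added after the data were seen.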

Additional observations from a re-analysis of the deposited data

How the results depend on the processing

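Limma called 0 of the 10 integrin-axis genes under every alternative, the lowest adjusted p being 0.138, for an oligo of Itgav tested on its own, and 0 to 5 of them had an unadjusted p under 0.05. The count of genes called over all genes was 1 as reported, 0 with arrays scaled to the same spread, 0 with genes at the lowest ratio left out, and 0 without replicate 1, 2 or 3; the 1 gene was at the lowest deposited ratio on every array. At an unadjusted p under 0.05 there were 1686, 2078 and 3929 genes without replicates 1, 2 and 3, against 3304 as reported. The median of the 10 means (-0.17) was 0.045 with each oligo tested on its own, where Itgav counts 3 times, and ran from -0.32 to 0.0084 with an array left out. With an array left out, means ran from -0.16 to 0.12 for Itga3, from -1.94 to 0.073 for Itgb4, from -0.74 to 0.063 for Itgb6 and from -0.29 to 0.54 for Npnt. Means changed sign for Itga3 (0.12), Itgb4 (0.073) and Npnt (-0.29) without replicate 1, for Itgb6 (0.063) without replicate 2, and for Itga3 (0.018) with the local median subtracted; the cause was not tested. The same range was from -1.21 to -0.051 for Itga8, from 0.068 to 1.23 for Itga4, from 0.00022 to 0.49 for Itga1, from -0.63 to -0.22 for Itgb1, from -0.49 to -0.21 for Itga6 and from 0.62 to 0.88 for Itgav. The other 117 values of single genes kept their sign and their side of the threshold. No paired analysis was possible because all arrays belong to 1 group and each already sets both tissues against each other. Signal over background was not examined.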

Other observations

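Some genes of the same adhesion lists had a value on only some arrays and were not tested. Cd9, a tetraspanin of many epithelia and of platelets, had a log2 ratio of -4.34 on array 1 and 0.89 on array 3. Col4a1, a collagen chain of basement membranes and a ligand of the Itga1 receptor, had 0.68 on array 1 and 0.87 on array 2. Its partner Col4a2, which was measured throughout, had 0.76, 0.92 and 0.048 on arrays 1, 2 and 3. Lims2, a partner of Ilk, had 0.47 on array 1 and 0.43 on array 2.

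Array 3 stood far from the others for some genes around the integrins too. Cav1, the membrane protein caveolin, had 0.084, 0.44 and 2.18 on arrays 1, 2 and 3. Postn, the matrix protein periostin, had -0.98, 0.0029 and 1.95, and the laminin chain Lamb2 had -1.65, -1.75 and 0.26. These 3 were picked after their values were seen. The subunits of the platelet receptor, Itga2b and Itgb3, stood at means of 0.015 ± 0.59 and 0.086 ± 0.13. The other platelet markers Gp9, Gp1bb and Pf4 stood at 0.19 ± 0.25, 0.096 ± 0.92 and 0.33 ± 1.00. Array 3 was the high one for Pf4 (-0.42, -0.050 and 1.47). It was the low one for Gp1bb (0.74, 0.51 and -0.96) and Itga2b (0.15, 0.52 and -0.63). Limma passed 0 of the 5 platelet genes, and 0 had an unadjusted p under 0.05.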
